A study of Saccharomyces cerevisiae with 40 samples.

Results

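The early response of Saccharomyces cerevisiae to renewed synthesis of Nmd2 was followed between the 10 and 20 min samples of an induction time course. The comparison rests on 8 of the 40 arrays of the study, the 4 arrays of the GAL-NMD2 strain at 20 min and the 4 of that strain at 10 min, paired by the biological replicate number of the labels. It covers all 9275 probe sets of the array that are not controls, of 9335 in the table. Both strains of the study were hosts with the chromosomal disruption nmd2::HIS3, grown at 30°C without uracil. GAL-NMD2 carried a plasmid with NMD2 under the GAL1 promoter. The other strain, nmd2D, carried an empty URA3 vector in its place, so by the labels it met the same sugar and the same disruption without the inducible gene. Both were sampled at 0, 10, 20, 40 and 60 min in 4 replicates that the series design calls independent. The labels disagree on the medium: the design describes raffinose medium to which galactose was added, and the growth notes of the samples name galactose medium. NMD2 stands on a plasmid behind a strong promoter here, which limits the strain as a model of the chromosomal gene.

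Nonsense-mediated mRNA decay removes transcripts on which a ribosome stops too early. Upf1, encoded by NAM7, is the helicase at its core, and Nmd2 (Upf2) and Upf3 bind it and are needed for its activity. In a cell without Nmd2 the substrates of the pathway accumulate, among them transcripts with premature stop codons, long 3′ UTRs, upstream reading frames or poorly spliced introns, and transcribed pseudogenes. When Nmd2 returns, such transcripts can be degraded again, and transcripts with short half-lives can show it within minutes.

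Signals below are the deposited MAS5 intensities of a probe set, given for replicates 1, 2, 3 and 4 in that order. Every array had a trimmed mean of 250.155 to 250.222, so a signal says how bright a probe set was among those of the same array. Levels of different probe sets cannot be compared. Changes are differences of log2(signal + 16) between 20 and 10 min of the same replicate number, fitted with limma over all 40 arrays with each culture as a block, and a probe set was called when its Benjamini-Hochberg adjusted p over all 9275 was below 0.05. The added 16 makes folds of dim probe sets smaller than the ratio of their signals. The mating type markers do not settle the mating type. The a-specific receptor gene STE2 had signals of 313 to 428 at 20 min and 347 to 557 at 10 min in GAL-NMD2, while STE3, its alpha-specific counterpart, stayed at 41.6 or below on the 10 and 20 min arrays of both strains, and SAG1, an alpha-specific agglutinin gene, averaged 740 at 20 min and 718 at 10 min in GAL-NMD2. The 4 alpha-specific markers examined summed to 641 to 980 per array at 10 min in GAL-NMD2, and most of that was SAG1. On the same arrays the 7 a-specific markers examined, STE2 among them, summed to 2056 to 3121.

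NMD2 itself had signals of 1641, 1863, 1662 and 1345 at 20 min, against 1119.7, 1226, 1602 and 1268 at 10 min in GAL-NMD2. In nmd2D its probe set read 746, 1027, 1066 and 874 at 20 min, against 787, 926, 914 and 879.7 at 10 min. The GAL-NMD2 values were higher at 20 min in 4 of 4 replicates, overlapped between the times, and gave a log2 change of 0.32 ± 0.11 (SE; adjusted p = 0.09), which did not pass the threshold. The nmd2D arrays were bright on this probe set at both times, and whether its probes lie in the deleted part of the gene was not tested. It therefore checks the labels only in so far as GAL-NMD2 was above nmd2D on every one of these arrays. Replicate 2 of GAL-NMD2 stood apart in 2 ways. Its HUG1 signal was 31.3 at 20 min and 30.8 at 10 min, whereas replicates 1, 3 and 4 had 2782 to 5091 and nmd2D stayed at 38 or below; HUG1 encodes a small inhibitor of ribonucleotide reductase that is induced by DNA damage. Its 20 min array had a median signal of 84.4, and those of replicates 1, 3 and 4 had 63.8 to 68. Counts that this culture moves are given with and without it.

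Between 10 and 20 min, 363 of the 9275 probe sets (3.91%) were called in GAL-NMD2. Of these, 317 fell (3.42% of all tested) and 46 rose (0.496%). In nmd2D the same step gave 1 call, the fall of STL1 (0.0108%), in limma, with 408 probe sets (4.40%) at an unadjusted p below 0.05, of which 237 (2.56%) were lower and 171 higher. The falls of GAL-NMD2 ran from -0.27 to -1.42 on the log2 scale with a median of -0.56, and the rises from 0.27 to 1.01 with a median of 0.42. Most were modest, and 5 falls and 1 rise reached 2-fold. The 5 were PNS1, STL1 and 3 probe sets without a symbol, and the rise was GAL1. Of the 317 falls, 299 were lower in 4 of 4 replicates, against 12.1% of all probe sets, and 42 of the 46 rises were higher in 4 of 4, against 6.25% of all. Among the falls, 106 had all 4 values at 20 min below all 4 at 10 min. Over all probe sets, 210 (2.26%) had no such overlap on the low side and 49 (0.528%) on the high side.

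The calls depend on the pairing of arrays by culture. Without the replicate block 12 probe sets fell and none rose in limma, and all 12 were among the 317. A fit of the 8 arrays alone, with the block, called none, with 1007 at an unadjusted p below 0.05 against 1702 (18.4%) over all 40 arrays. The excess of falls over rises also depends on the scaling. Centring each array on its median moved the median change of all probe sets from -0.03 to 0.08, a shift of 0.12, and gave 125 falls and 156 rises, so that 44.5% of calls were falls, against 87.3% with the deposited scaling. Quantile normalization gave 149 falls and 57 rises, 72.3% falls. Without replicate 2 of GAL-NMD2 the counts were 455 and 133. They were 160 and 33 without replicate 1, 248 and 40 without replicate 3, and 150 and 10 without replicate 4.

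The sign of the change followed the signal level. When all probe sets were split into 5 classes of 1855 by their mean level, the median change in GAL-NMD2 was 0 in the dimmest, -0.07, -0.09 and -0.07 in the next 3 classes, and 0.04 in the brightest. Falls were most frequent in the third class, with 111, and the next brighter one, with 109, and 37 of the 46 rises lay in the brightest class. In nmd2D the class medians stayed between -0.01 and 0.02. Replicate 2 moved the other way in the third class, with a median of 0.22, against -0.13, -0.28 and -0.14 in replicates 1, 3 and 4. Across the 9275 probe sets the changes of replicates 3 and 4 had a Pearson correlation of 0.49, and those of replicates 2 and 3 one of -0.23; probe sets are not independent replicates, and all changes of a replicate come from the same pair of arrays. The part of level and culture in the single calls was not tested.

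**Figure D1:**
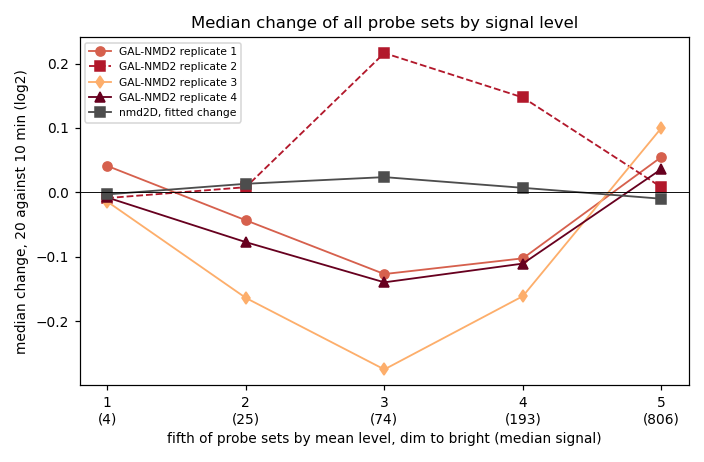
Median change from 10 to 20 min (log2, vertical axis) over the probe sets of 5 classes by mean level, dim to bright, with the median signal in brackets. Each GAL-NMD2 replicate has a line and nmd2D its fitted change; replicate 2 (dashed) reached 0.22 in the third class, where the other 3 replicates were between -0.28 and -0.13.

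The test of the difference between the strains in this step is the direct one. It called 6 probe sets (0.0647%), all with a lower change in GAL-NMD2, and none with a higher one in limma; at an unadjusted p below 0.05 there were 821 (8.85%), of which 591 were lower in GAL-NMD2. Of the 6 calls, those with 1 symbol were TEN1, RRT13 and MPA43, and 3 probe sets had no symbol. TEN1 encodes a subunit of the telomere-capping complex of Cdc13, Stn1 and Ten1, and is a known target of nonsense-mediated decay. Its signals were 40.3, 76.2, 64.7 and 59.1 at 20 min, against 103, 106, 106.5 and 91.2 at 10 min in GAL-NMD2, where all 4 values at 20 min lay below all 4 at 10 min. In nmd2D they were 133, 98, 115 and 86.8 at 20 min, against 88.2, 90.9, 105 and 73.6 at 10 min, higher at 20 min in 4 of 4 replicates. The step differed by -0.88 ± 0.17 on the log2 scale (SE; adjusted p = 0.04), made up of -0.65 in GAL-NMD2 and 0.23 in nmd2D.

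RRT13, whose product has no assigned function, was the most clear-cut of the 3. GAL-NMD2 signals were 173, 244, 288 and 245 at 20 min, against 489, 532.5, 443 and 433 at 10 min, and nmd2D signals were 487, 469, 473 and 454 at 20 min, against 462, 474, 581 and 532 at 10 min. The GAL-NMD2 groups did not overlap, and the nmd2D values stayed within 454 to 581. The fall was 1.96-fold, -0.97 ± 0.12 (SE; adjusted p = 8.6e-06), and the difference between the strains was -0.86 ± 0.16 (adjusted p = 0.04). MPA43, an uncharacterised gene, was dim: 18.4, 22.6, 37.1 and 17.5 at 20 min, against 42.2, 42.2, 64.3 and 34.3 at 10 min in GAL-NMD2 and 49.7, 37.4, 57.4 and 44.4 at 20 min, against 37.4, 28.4, 58.8 and 34.2 at 10 min in nmd2D. Each GAL-NMD2 replicate was lower at 20 min although the groups overlapped, and the difference was -0.83 ± 0.15 (adjusted p = 0.04). The 3 probe sets without a symbol differed by -0.92, -0.79 and -0.55. The first of them, 5512_at, had 67, 104, 80.6 and 123 at 20 min, against 199, 188, 159 and 195 at 10 min in GAL-NMD2, with no overlap, and 262, 223, 157 and 305 at 20 min, against 247, 218, 134 and 364 at 10 min in nmd2D. These 6 calls were lost when any replicate of nmd2D, or replicate 1 of GAL-NMD2, was left out, when the block was dropped, and under median centring and quantile normalization. Without GAL-NMD2 replicate 2 there were 17 calls and without replicate 3 there were 13.

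In nmd2D the 317 falls had a median change of -0.07, with 209 (65.9%) below 0, against 48.3% of all probe sets. At an unadjusted p below 0.05, 37 of them (11.7%) were lower in nmd2D, against 2.56% of all probe sets, and 0 were higher. The difference between the strains was lower at an unadjusted p below 0.05 for 232 of the 317 (73.2%), against 6.37% of all probe sets; the falls were chosen on the GAL-NMD2 side of that difference, so this share is a description.

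**Figure D2:**
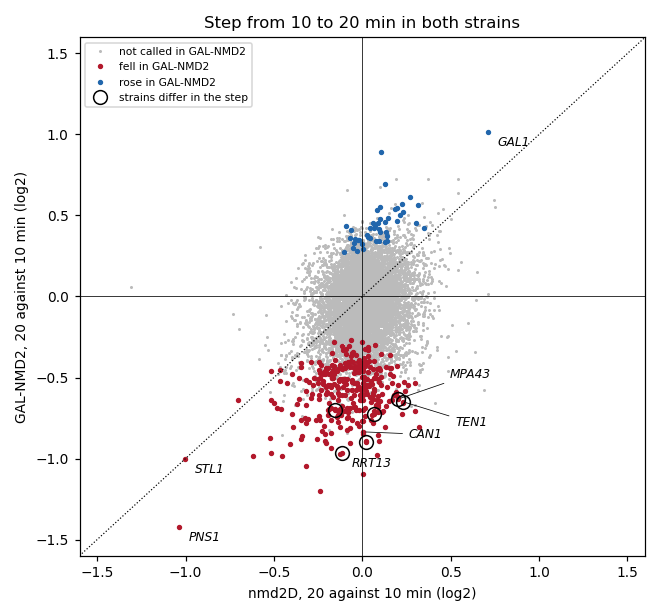
Fitted change from 10 to 20 min in GAL-NMD2 (vertical) against that in nmd2D (horizontal), both log2, for 9275 probe sets. The 317 falls lie below 0 and spread around 0 in nmd2D, and the 6 probe sets with a difference between the strains are circled. STL1 lies on the dotted line of equal change. PNS1 and GAL1 changed the same way in both strains but lie off the line, by -0.39 and 0.30.

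Among the 20 largest falls with 1 symbol, -0.83 to -1.42 on the log2 scale or 1.78- to 2.68-fold, 9 had a change below -0.3 in nmd2D as well. These were PNS1, STL1, CTT1, CYC7, TSL1, SYM1, YPL257W, RTC3 and MAL11. PNS1, which encodes a membrane protein related to choline transporters, had 32.8, 114, 31.9 and 46.8 at 20 min, against 99.6, 546, 79.2 and 142.5 at 10 min in GAL-NMD2. In nmd2D it had 199.8, 324, 205 and 219 at 20 min, against 442.5, 535, 536 and 466 at 10 min. Replicate 2 was the brightest of GAL-NMD2 at both times, and both strains were lower at 20 min in every replicate; the changes were -1.42 ± 0.21 (SE; adjusted p = 0.00025) in GAL-NMD2 and -1.04 in nmd2D. STL1, the glycerol transporter that is induced by osmotic stress and repressed by glucose, had 28.8, 14.8, 16.2 and 12.6 at 20 min, against 66.6, 61.4, 60.9 and 25.6 at 10 min in GAL-NMD2 and 6.7, 21.3, 15.1 and 15.7 at 20 min, against 26.1, 58.8, 43.1 and 55.9 at 10 min in nmd2D. It changed by -1.002 in GAL-NMD2 and -1.001 in nmd2D, the difference being -0.00 ± 0.25. CTT1, cytosolic catalase, had 46.2, 71.8, 50.5 and 34.7 at 20 min, against 77.6, 129, 129 and 127 at 10 min in GAL-NMD2 with no overlap, and had a change of -0.62 in nmd2D. CYC7, the form of cytochrome c made at low oxygen, had 88.2, 172, 102 and 169 at 20 min, against 189, 276, 279.8 and 352 at 10 min, also with no overlap, and had a change of -0.46 in nmd2D. None of these 9 differed between the strains past the threshold in limma; their differences ran from 0.00 to -0.53.

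For 8 of the 20 the nmd2D change lay within 0.2 of 0: RAD57, RRT13, YOL163W, SNF7, YMR158C-A, YBP1, MAL31 and CAN1. CAN1, the arginine permease, had 378, 385, 429.6 and 753 at 20 min, against 838, 1084, 639.6 and 874 at 10 min in GAL-NMD2 and 1069.9, 1158, 719 and 1071 at 20 min, against 890.3, 1198, 801 and 1109.6 at 10 min in nmd2D. Replicate 4 at 20 min was nearly as high as at 10 min, and the other 3 were well below; the change was -0.84 ± 0.15 (SE; adjusted p = 0.0012). MAL31, a maltose permease, had 421, 399, 397 and 446 at 20 min, against 820.1, 897, 621 and 715 at 10 min in GAL-NMD2. The groups did not overlap and the change was -0.84 ± 0.12 (SE; adjusted p = 0.00018). YOL163W, an uncharacterised reading frame near a chromosome end, had 30.2, 43.1, 49.8 and 68.9 at 20 min, against 85.6, 143, 64.7 and 123.5 at 10 min, lower in every replicate with overlapping groups. YBP1, whose product binds the transcription factor Yap1, had 52.6, 48.9, 41.7 and 22.2 at 20 min, against 99.2, 83.9, 115 and 52.1 at 10 min, likewise lower in every replicate. RAD57, a DNA repair gene, had 168, 221, 182 and 23.3 at 20 min, against 248, 261, 254 and 242 at 10 min. One array decided its rank, replicate 4 at 20 min with 23.3, and the call was lost in 9 of 13 alternative settings. SNF7, a subunit of the ESCRT-III complex, was called on a dim probe set with 1 to 32.7 at 20 min and 21.1 to 68.8 at 10 min, while its other 2 probe sets had changes of -0.04 and -0.47 that did not pass. Of the 20, 12 had no overlap between the times, against 2.26% of all probe sets on the low side. The 20 were chosen as large falls in 4 of 4 replicates, so that count is a description.

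The remaining 3 were RTN2, PAU15 and THI74, with nmd2D changes of -0.26, -0.21 and -0.23. RTN2 encodes a reticulon of the endoplasmic reticulum and THI74 a mitochondrial transporter repressed by thiamine. PAU15, a seripauperin, had 79.7, 115, 112 and 106 at 20 min, against 195, 227, 208 and 162 at 10 min, a change of -0.85 ± 0.10 (SE; adjusted p = 8.6e-06) with no overlap.

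**Figure D3:**
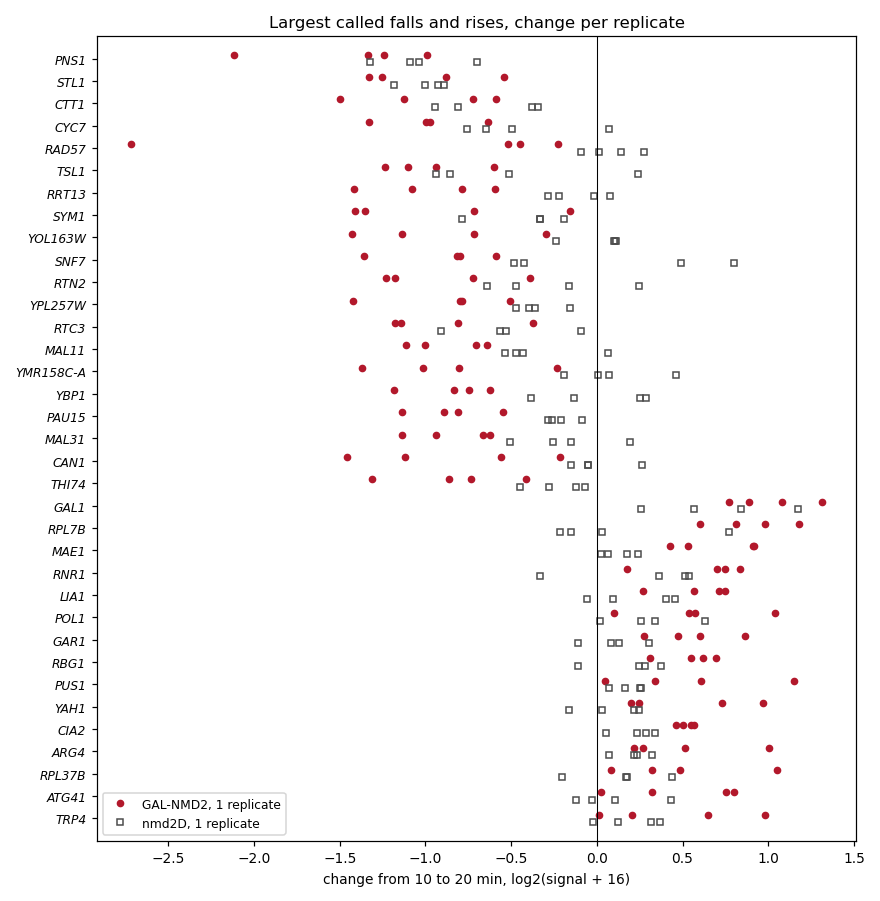
Change from 10 to 20 min in each replicate (log2, horizontal axis) for the 20 largest falls, from PNS1 at the top, and the 15 largest rises, from GAL1 down. Filled circles are GAL-NMD2 and open squares nmd2D, 4 each; RAD57 has 1 GAL-NMD2 replicate at -2.72 and PNS1, STL1 and GAL1 have nmd2D squares beside the circles.

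Of the 17 known substrates of nonsense-mediated decay that were measured, 3 fell (TEN1, STN1 and COX19), against 188 of 5656 genes (3.32%), and 16 had a change below 0, with a median of -0.21 against -0.02 for all genes. The median per replicate was -0.28, -0.27, -0.25 and -0.35, and in nmd2D it was -0.01, with 9 of 17 below 0. Under median centring the list's median was -0.09 with the same number of falls. Relative to the median of all probe sets it stayed at -0.18 by construction, because centring shifts all changes by the same amount. After quantile normalization the list's median was -0.22, against 0.01 for all probe sets, again with 3 falls. At an unadjusted p below 0.05, 8 of the 17 were lower, against 12.8% of all probe sets, and 0 were higher. The list was chosen with results of these data known, so its direction is a description.

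STN1, the partner of TEN1 in telomere capping, had 77.2, 150.3, 147 and 82.9 at 20 min, against 159.6, 188, 258 and 162.5 at 10 min in GAL-NMD2. In nmd2D it had 154, 153, 199 and 154 at 20 min, against 162, 159, 204 and 182 at 10 min. The GAL-NMD2 groups did not overlap and the change was -0.70 ± 0.14 (SE; adjusted p = 0.0028). COX19, which encodes a small mitochondrial protein needed to assemble cytochrome oxidase, had 154, 196, 154 and 230.1 at 20 min, against 341, 355, 243 and 298 at 10 min in GAL-NMD2, again with no overlap, and 423, 353, 278 and 482 at 20 min, against 338, 392, 298 and 372 at 10 min in nmd2D. It changed by -0.71 ± 0.15 (SE; adjusted p = 0.0051), and by 0.11 in nmd2D; the difference of -0.82 did not pass (adjusted p = 0.13). The telomerase genes EST1, EST2 and EST3 had changes of -0.41, -0.33 and -0.39 without passing. EST3 had 324, 410.4, 599 and 365 at 20 min, against 511, 600.5, 509 and 563 at 10 min, lower in 3 of 4 replicates. CPA1, whose upstream reading frame makes it a substrate when arginine is plentiful, had 1106, 2526, 3289 and 3262.5 at 20 min, against 1363, 3041, 2937 and 2907.5 at 10 min, with 2 replicates each way and a change of -0.06. PTC7, a substrate in its unspliced form, had 289, 730.4, 533 and 363 at 20 min, against 376, 848, 832 and 577 at 10 min in GAL-NMD2. In nmd2D it had 85.6, 132, 164 and 136 at 20 min, against 102, 128, 152 and 142.5 at 10 min. It was lower in 4 of 4 GAL-NMD2 replicates, with -0.46 ± 0.16 (adjusted p = 0.11). Yet GAL-NMD2 was far above nmd2D on this probe set, with means of 479 at 20 min and 658 at 10 min. Those of nmd2D were 129 and 131. The cause of this offset was not tested, so the fall of PTC7 is a description.

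Of the factors of the pathway, NMD4, which encodes a protein that binds Upf1, fell. Its signals were 53.1, 61.5, 58.4 and 29.7 at 20 min, against 115, 107, 90.2 and 68.6 at 10 min in GAL-NMD2, with no overlap, and 109.5, 91.3, 89.7 and 84.5 at 20 min, against 113, 119.6, 97.8 and 91.5 at 10 min in nmd2D. The change was -0.75 ± 0.12 (SE; adjusted p = 0.00057), and the difference from nmd2D of -0.60 did not pass (adjusted p = 0.16). NAM7 had a change of -0.26, UPF3 of 0.15, EBS1 of -0.03 and ESL1 of -0.10, none past the threshold. The 31 genes of general mRNA decay (deadenylases, decapping, exosome and Ski factors) had a median change of 0.00. None was called in limma, and 1 was lower at an unadjusted p below 0.05, against 12.8% of all probe sets.

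Telomere and silencing genes had 2 falls of 17 (11.8%, against 3.32% of all genes). Those were TEN1 and STN1, which are also counted in the substrate list. Without replicate 2, or without replicate 3, there were 3 falls. The list's median was -0.12 in GAL-NMD2 against 0.04 in nmd2D. In replicate 2 that median was 0.25, against -0.17 to -0.28 in the others. ADE2, the phosphoribosylaminoimidazole carboxylase of purine synthesis, was the single fall of 18 purine genes (5.56%, against 3.32% of all genes). It had 335, 598.5, 563.5 and 648 at 20 min, against 750.5, 933, 842 and 848.5 at 10 min in GAL-NMD2 and 837.5, 868, 775 and 1020 at 20 min, against 937, 966, 742 and 1187 at 10 min in nmd2D. The GAL-NMD2 groups did not overlap, and the change was -0.68 ± 0.11 (SE; adjusted p = 0.00085). The median of the purine list was 0.07, so ADE2 did not move with the rest of the pathway.

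**Figure D4:**
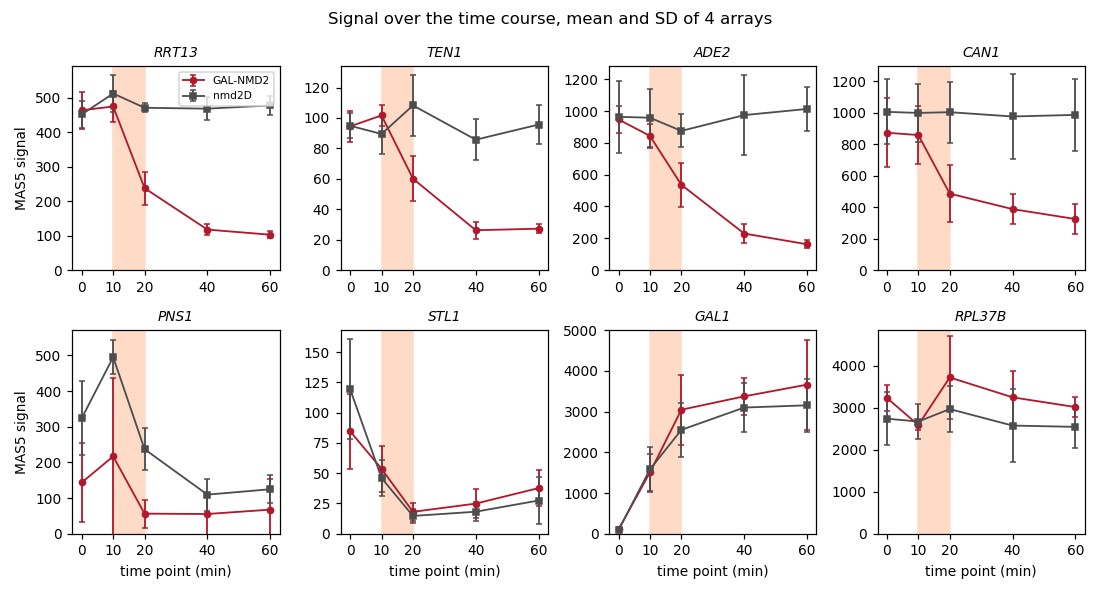
Mean MAS5 signal with SD over 4 arrays (vertical) over the course in GAL-NMD2 (red circles) and nmd2D (grey squares); the shaded band is 10 to 20 min. RRT13, TEN1, ADE2 and CAN1 have GAL-NMD2 below nmd2D from 20 min on, the 10 and 20 min means of PNS1, STL1 and GAL1 differ the same way in both strains, and RPL37B is highest in GAL-NMD2 at 20 min.

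For RRT13 the 20 min sample lay within a longer decline. Its GAL-NMD2 means were 474 ± 45.8 (10 min), 238 ± 47.5 (20 min), 117 ± 16.2 (40 min) and 102.5 ± 10.7 (60 min; SD, n = 4 each), while nmd2D stayed between 452 and 512. At the same 4 times TEN1 had GAL-NMD2 means of 102, 60.1, 26.2 and 27.2. ADE2 had 844, 536, 229.7 and 162. CAN1 had 859, 486, 388 and 325. In signal units the drop between successive means of each of these genes was largest from 10 to 20 min. For ADE2 that drop was barely larger than from 20 to 40 min. As a ratio of means, the drop of TEN1 and ADE2 was larger from 20 to 40 min, and that of RRT13 was about equal. That later interval is also longer. The genes were picked as falls of the 10 to 20 min step, so this is a description. ADE2 was still more than 3 times its 60 min mean at 20 min.

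The falls overlapped with what separated the strains by the end of the course, a comparison added after the 10 to 20 min calls had been seen. The change from 0 to 60 min was lower in GAL-NMD2 than in nmd2D for 836 probe sets (9.01%) and higher for 23 (0.248%), 9.26% together. Of the 317 falls, 226 (71.3%) were among the 836, which is 27.0% of those 836, and 1, STL1, was among the 23. None of the 46 rises was among the 836. These changes use other arrays than the 10 and 20 min step, but the same cultures. Both also come from the same fit, so a probe set has the same estimate of spread in both. Without GAL-NMD2 replicate 2 the share was 53.4%. Of the 8 large falls with a flat nmd2D, 7 were called lower by 60 min, and of the 9 with a change below -0.3 in nmd2D, 3 were. A later step of GAL-NMD2, 60 against 40 min, gave 3 calls (0.0323%), all falls, with 602 (6.49%) at an unadjusted p below 0.05. The 3 calls were PCK1, YOL014W and a probe set without a symbol that was also among the 317. At an unadjusted p below 0.05, 32 of the 317 falls (10.1%) were lower in that later step, against 4.26% of all.

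Among nutrient lists the share of falls varied, against 3.32% of all genes. Of 25 measured genes under nitrogen catabolite repression, the control that silences use of poor nitrogen sources, 5 fell: CAN1, DAL5, DUR3, MEP2 and DAL7 (the last 2 named after their values were seen). DAL5, the allantoate permease, had 266, 333, 336 and 316 at 20 min, against 713, 503, 451 and 467 at 10 min in GAL-NMD2. In nmd2D it had 731, 578, 522 and 582 at 20 min, against 388, 649.9, 548.5 and 491 at 10 min. The GAL-NMD2 groups did not overlap, and the difference between the strains was -0.95 (adjusted p = 0.073). DUR3, which carries urea, had 72.7, 97.2, 97.1 and 59 at 20 min, against 121, 182, 151 and 112 at 10 min, a change of -0.69 ± 0.12 (SE; adjusted p = 0.00085) with no overlap. MEP2, the ammonium permease, was lower in 3 of 4 replicates and changed by -0.62 ± 0.15 (SE; adjusted p = 0.012). The median of the list was -0.19 in GAL-NMD2 and -0.04 in nmd2D. Its 5 falls became 2 without replicate 1 of GAL-NMD2, and 3 without replicate 4, under median centring and under quantile normalization. PUT4, the proline permease, had a change of -0.64 that did not pass, and of -0.45 in nmd2D.

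Of 6 measured maltose genes 3 fell, MAL11, MAL31 and MAL13, and the median was -0.39 in GAL-NMD2 and -0.17 in nmd2D. MAL11, a transporter of maltose and other alpha-glucosides, had 497, 381.5, 468 and 429 at 20 min, against 1010.2, 843, 772 and 676 at 10 min in GAL-NMD2 and 993, 743, 708 and 922 at 20 min, against 1448, 1007, 987 and 880.2 at 10 min in nmd2D. The GAL-NMD2 groups did not overlap; the changes were -0.86 ± 0.13 (SE; adjusted p = 0.00025) and -0.34 in nmd2D. MAL31 was read on a probe set of a type that can match several transcripts. Whether the probe sets of maltose genes share signal was not tested. FRE2, a ferric reductase, had 87.5, 117, 142 and 121 at 20 min, against 154, 258, 168 and 216 at 10 min, and ARN2, a siderophore transporter, 191, 180.1, 274 and 293.5 at 20 min, against 241, 441, 319 and 485 at 10 min. They were the 2 falls of 22 iron genes (9.09%), 1 without replicate 1, under median centring and under quantile normalization, with changes of -0.68 and -0.61, and the list's median in replicate 2 was -0.61 against -0.19 to 0.01 in the others. GIT1, which imports glycerophosphoinositol, had 43.3, 42.3, 38.4 and 23.6 at 20 min, against 68.6, 108, 45.1 and 52.3 at 10 min, a fall of -0.64 ± 0.13 (SE; adjusted p = 0.0028) and the single one of 15 phosphate genes (6.67%); without replicate 2 there were 2. Of 25 sulfur and methionine genes 2 fell: JLP1, a dioxygenase that frees sulfur from sulfonates, by -0.61, and CBF1, a transcription factor of the pathway, by -0.55; without replicate 3 none of the 25 fell, and without replicate 4 there was 1.

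Falls were frequent near chromosome ends. Of the 205 falls with 1 symbol, 54 (26.3%), from 52 genes, were among the 15 outermost annotated genes of a chromosome arm, against 432 of 6504 (6.64%) of all such probe sets, and 0 of the 38 rises were. Seen from the other side, 12.5% of the outermost probe sets fell, against 2.50% of the others. The outermost probe sets had a median change of -0.14 in GAL-NMD2 and 0.00 in nmd2D; in the 4 replicates of GAL-NMD2 it was -0.18, -0.18, -0.07 and -0.12. The difference from the remaining genes varied with the culture. Those had medians of -0.03, 0.12, -0.12 and -0.06, so that the outermost genes were lowest against the rest in replicate 2 and not lower in replicate 3. Without replicate 2 the share of falls near an end was 12.4%, 42 of 338. Under the other settings with calls it lay between 23.1% and 30.6%, apart from the fit without the replicate block, where it was 5 of 10.

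The gene families of these regions were part of this. Of 22 measured seripauperin (PAU), COS and AAD genes 9 fell (40.9%), against 3.32% of all genes, by -0.41 to -0.85. Counted on the brightest probe set of each gene, 8 of the 9 were PAU genes and 1 was COS9. A dimmer probe set of AAD4 (-0.78) and one of COS7 (-0.69) also fell, while the brighter ones had changes of -0.07 and -0.54 that did not pass. The median was -0.39 in GAL-NMD2, and 0.01 in nmd2D. By replicate it was -0.49, -0.63, -0.10 and -0.20, without replicate 2 it was -0.20 with 7 falls, and without replicate 1 it was -0.32 with 4 falls. PAU7 had 185, 271, 264 and 352.5 at 20 min, against 623, 476, 379 and 432 at 10 min in GAL-NMD2 and 839, 508, 514 and 482.5 at 20 min, against 308, 528.5, 552 and 469 at 10 min in nmd2D. PAU16 had 156, 281, 268 and 237 at 20 min, against 392, 419, 344 and 313 at 10 min in GAL-NMD2. Both had no overlap in GAL-NMD2. PAU genes are near-identical copies and 8 of the 9 probe sets are of a type that the array's design marks as matching a family, so the falls cannot be assigned to single copies. PAU3, PAU4, PAU10, PAU15, PAU17 and PAU19 were the other PAU calls; PAU3, PAU4, PAU17, PAU19, COS9, AAD4 and COS7 are named after their values were seen.

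Annotated pseudogenes were few. Of 14 probe sets on 11 pseudogenes, 5 fell, against 3.42% of all probe sets, which the annotation assigns to SDL1, YIR043C (both of its probe sets), YOL153C and SDC25; these are named after their values were seen. SDL1 averaged 50.9 ± 11.3 at 20 min and 97.8 ± 14.6 at 10 min in GAL-NMD2 (SD, n = 4 each), a log2 change of -0.77 with an adjusted p of 6.5e-04 in limma, with -0.14 in nmd2D. SDC25 averaged 39.5 ± 14.4 at 20 min and 71.6 ± 19.5 at 10 min, a change of -0.67 (adjusted p = 0.025). YIR043C and SDL1 also lie among the outermost genes. A second SDL1 probe set had -0.45 without passing, and CRS5, FLO8 and AAD6 had -0.08, -0.16 and -0.14 on the brighter of their probe sets.

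Of 42 genes of the environmental stress response 6 fell in GAL-NMD2 (14.3%, against 3.32% of all genes), STL1, CTT1, TSL1, RTN2, GPD1 and GDB1, and the median was -0.28. In nmd2D the median was -0.15 and 31 of 42 were below 0, with STL1 the 1 call. TSL1, a subunit of trehalose synthase, had 511.5, 242, 197 and 397 at 20 min, against 993, 592, 442 and 610 at 10 min in GAL-NMD2, lower in every replicate with overlapping groups. In nmd2D it had 884, 448, 298.5 and 559 at 20 min, against 744.5, 824, 585.5 and 805 at 10 min. GPD1, which makes glycerol 3-phosphate, and GDB1, the glycogen debranching enzyme, were named after their values were seen. GPD1 had 969.6, 933, 1068 and 1363 at 20 min, against 1726, 1885, 1562 and 1553 at 10 min in GAL-NMD2 with no overlap, and changed by -0.64 in GAL-NMD2 and -0.70 in nmd2D. HXT5, a hexose transporter of slow growth, changed by -0.66 in GAL-NMD2 and -0.37 in nmd2D, the single fall of 20 hexose transport genes, of which none fell without replicate 2 or 4, under median centring or after quantile normalization. PDC5, a pyruvate decarboxylase, changed by -0.48 (a fall), while 15 of the 17 glycolytic genes were above 0 and the list's median was 0.19. After quantile normalization the glycolytic median was 0.02, against 0.01 for all probe sets.

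Meiosis genes had 6 falls of 38 (15.8%, against 3.32% of all genes), MSH5, SPO1, DIT1, IME2, MEI4 and REC102, all but MSH5 named after their values were seen. They are barely transcribed in dividing haploid cells and were dim here. IME2, the kinase that starts meiosis, had 33.8, 78.7, 66.6 and 52.6 at 20 min, against 81.3, 85, 104 and 74.7 at 10 min. SPO1, a phospholipase of spore formation, had 22.6, 48.3, 48.1 and 25.5 at 20 min, against 59.4, 70.2, 57 and 43.8 at 10 min, and MEI4, needed for recombination, at most 10.5 on these arrays. Each was lower in 4 of 4 replicates. Under median centring and under quantile normalization 1 of the 38 fell. There were 3 falls without replicate 1, 9 without replicate 2, 2 without replicate 3 and 1 without replicate 4.

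Rises were fewer and mostly on bright probe sets: the 46 had a median signal of 1018 at 10 min, against 131 for the falls and 80.7 for all. GAL1, galactokinase, had 4089, 1999.8, 3215 and 2881 at 20 min, against 1923, 1074, 1877 and 1150.1 at 10 min in GAL-NMD2. In nmd2D it had 1948, 2545, 3473 and 2241 at 20 min, against 1626, 1119, 2337 and 1243 at 10 min. The GAL-NMD2 groups did not overlap; the change was 1.01 ± 0.18 (SE; adjusted p = 0.0013), and 0.71 in nmd2D, with a difference of 0.30 ± 0.25 between the strains. GAL2, the galactose permease, had 4162, 3512, 5603 and 4961 at 20 min, against 2704, 2480.2, 2744 and 2925 at 10 min and GAL10, the epimerase, 2670.3, 2067, 2576 and 2256 at 20 min, against 1829, 1446, 1586 and 1623 at 10 min. Both were higher in 4 of 4 replicates with no overlap and did not pass (adjusted p = 0.061 and 0.098). Over the 15 galactose genes the median was 0.21 in GAL-NMD2 and 0.25 in nmd2D, with 1 rise; 8 were higher, against 5.57% of all probe sets, and 0 lower at an unadjusted p below 0.05. Under median centring 4 of the 15 rose, and 2 without replicate 1 or without replicate 2.

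Ribosomal protein genes made up the largest group among the rises. Of 80 measured, 8 rose (10.0%), against 0.654% of all genes, and the median was 0.18 in GAL-NMD2 against 0.01 in nmd2D, with 74 of 80 above 0. The count depends on the culture and the scaling: 26 rose without replicate 2, 0 without replicate 3, 1 without replicate 4 and 2 under quantile normalization, where the median was 0.03. RPL37B had 3443, 2769, 5088.5 and 3585 at 20 min, against 2747, 2611.5, 2444 and 2552 at 10 min in GAL-NMD2, with no overlap. In nmd2D it had 2652, 3157, 3644 and 2420 at 20 min, against 2352, 2322, 3219.9 and 2791 at 10 min. RPP1B, a stalk protein of the large subunit, had 5658, 3677, 7231 and 6437 at 20 min, against 4299.8, 3565, 4362 and 4353 at 10 min, a change of 0.43 ± 0.12 (SE; adjusted p = 0.036). RPL7B had the largest rise of the list, 0.89, on 1 of its 2 probe sets; the other had a change of -0.16. RPL36A changed by 0.42, and RPS7B, RPL24B, RPL31A and RPL10, named after their values were seen, by 0.29 to 0.35.

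Other rises were spread over biosynthesis and replication. GAR1, a protein of the small nucleolar RNPs that guide pseudouridylation, had 612.5, 887.5, 608.5 and 689 at 20 min, against 436, 481, 499.7 and 449 at 10 min with no overlap. It and ERB1 (named after its values were seen) were the 2 rises of 87 ribosome biogenesis genes (2.30%, against 0.654% of all genes), whose median was 0.21 in GAL-NMD2 and 0.11 in nmd2D; by replicate it was 0.48, 0.50, -0.10 and 0.03. Of the 87, 0 rose without replicate 2, 1 without replicate 1, 3 or 4, 4 after quantile normalization and 8 under median centring. RNR1, the large subunit of ribonucleotide reductase, had 957, 436, 273 and 380.4 at 20 min, against 564, 384, 161 and 206 at 10 min, and POL1, the catalytic subunit of DNA polymerase alpha, 224, 199.7, 109 and 121 at 20 min, against 146, 88.9, 101 and 78.4 at 10 min. Both were higher in every replicate with overlapping groups, and both were brightest in replicate 1. LIA1, which completes the hypusine modification of the translation factor eIF5A, had 670, 885, 736 and 713 at 20 min, against 554, 521.5, 491.5 and 429 at 10 min with no overlap. ARG4, argininosuccinate lyase, changed by 0.50, and TRP4 of tryptophan synthesis, the single rise of 32 genes under general amino acid control, by 0.46; that list's median was 0.24, and 17 of the 32 were higher at an unadjusted p below 0.05, against 5.57% of all probe sets. Of the 32, 7 rose under median centring, 6 without replicate 2, 5 with the dimmest 20% of probe sets left out, 4 after quantile normalization, 2 without replicate 1 and 0 without replicate 3 or 4. After quantile normalization the median of these 32 genes was 0.09, against 0.01 for all probe sets. HSP60, the mitochondrial chaperonin, was the rise of the heat shock list with 0.38; none of that list rose without replicate 1 or 4, and 3 did without replicate 3. MAE1, mitochondrial malic enzyme, changed by 0.70 and YAH1 and CIA2, both of iron-sulfur cluster assembly, by 0.54 and 0.52. The 15 largest rises had positive nmd2D changes of 0.08 to 0.71, and their differences between the strains, 0.25 to 0.79, did not pass.

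**Figure D5:**
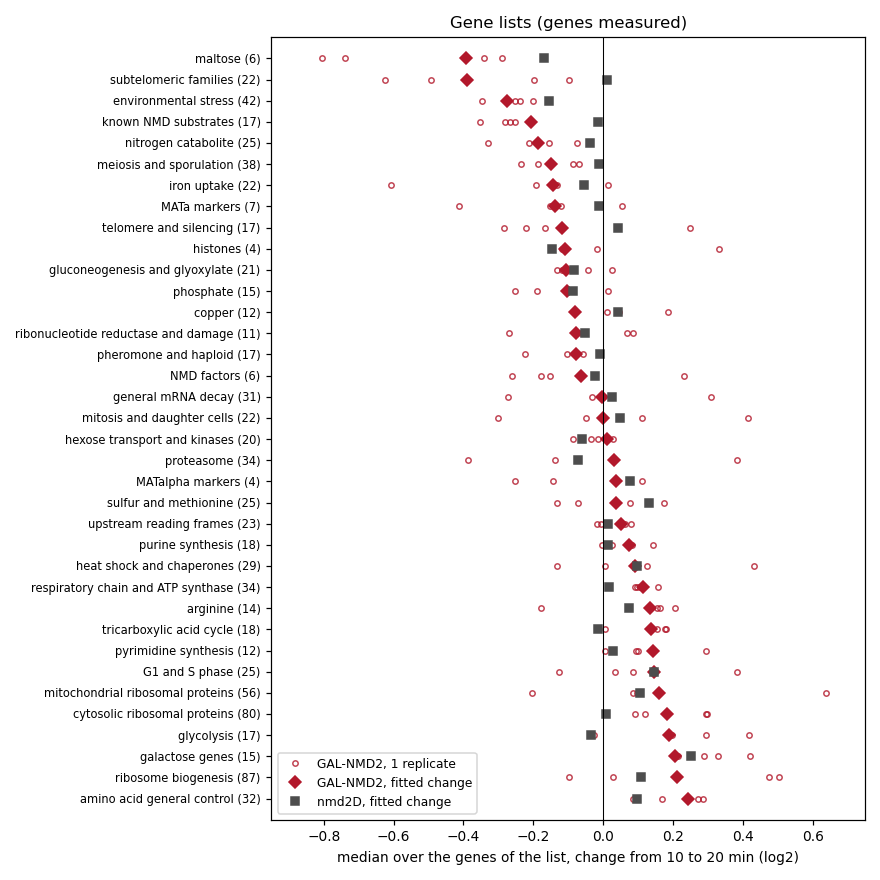
Median change from 10 to 20 min (log2, horizontal axis) over the measured genes of 36 lists, ordered by the GAL-NMD2 median. Diamonds are the fitted GAL-NMD2 change, open circles its 4 replicates and squares the nmd2D change; maltose and subtelomeric genes are lowest at -0.39, known substrates of nonsense-mediated decay are at -0.21 with nmd2D at -0.01, and amino acid general control is highest at 0.24. All medians use the deposited scaling. After quantile normalization amino acid general control had 0.09 and ribosome biogenesis 0.31.

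Of the 36 lists, 12 had no call in either direction in limma: general mRNA decay, upstream reading frames, pyrimidine synthesis, gluconeogenesis, the tricarboxylic acid cycle, mitochondrial ribosomal proteins, the proteasome, pheromone response, both mating type lists, histones and mitosis. Of their 249 memberships 12 were lower and 20 higher at an unadjusted p below 0.05 in limma. Over all probe sets 12.8% were lower and 5.57% higher at that threshold. Genes with upstream reading frames had a median of 0.05 in GAL-NMD2 and 0.02 in nmd2D. GCN4, the best known of them, had 4012, 2926, 3735 and 3974 at 20 min, against 2949.5, 2941, 3072 and 3019 at 10 min, a change of 0.28 ± 0.09 (SE; adjusted p = 0.07). Mitochondrial ribosomal proteins and proteasome genes spread widely between cultures: the median of mitochondrial ribosomal proteins was 0.64 in replicate 2 and -0.20 in replicate 3, and that of proteasome genes 0.38 in replicate 2 and -0.39 in replicate 3.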

How the data were processed

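RNA was measured on 40 Affymetrix yeast arrays. The deposited signal intensities came from MAS5, per the submitters' processing notes; no source used here gives its version, and the intensities carry a common trimmed mean of each array. No detection calls were used; precision is limited by the 4 arrays of a group. Of 9275 probe sets that are not controls, 6504 had 1 gene symbol in the platform annotation, 328 several and 2443 none; all 6504 matched the R64 gene table, used for names and gene order alone. No sequence was used.

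Values were taken as log2(intensity + 16). limma 3.58.1 in R 4.3.3 (lmFit, eBayes with trend, 24 residual degrees of freedom) fitted 10 group means and 8 cultures (strain and replicate number) over all 40 arrays, without a filter on low values; Benjamini-Hochberg adjusted p below 0.05 was called. Contrasts were the 10 to 20 min step in each strain, their difference, the 40 to 60 min step in GAL-NMD2 and, added later, the change from 0 to 60 min between strains. The labels' numbers were taken to pair the arrays, because deviations from group means at 10 and 20 min correlated between equal numbers at 0.19 to 0.72 in GAL-NMD2 and 0.67 to 0.81 in nmd2D; the weakest, replicate 2, correlated at 0.32 with the 10 min array of replicate 3. No arrays were identical; correlations within groups were 0.960 to 0.989.

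Named genes were called in 4 of 4 replicates with 1 symbol (20 largest falls, 15 largest rises, those that differed between strains), plus checks, the galactose, factor and substrate lists and up to 4 members of each other list. Lists took the brightest probe set of a gene. The members and the 36 lists were chosen with earlier results of these data known. The fit was tested on simulated data. Alternatives were no replicate block, a random block, the arrays compared alone, added constants of 1 and 64, leaving out the dimmest 20%, median centring, quantile normalization, eBayes without a trend, and leaving out each replicate.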

Additional observations from a re-analysis of the deposited data

Results flagged for a closer look

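The step from 10 to 20 min differed between the strains, by the test of the difference itself, for 6 probe sets. The difference, GAL-NMD2 minus nmd2D, was -0.92 on the log2 scale for 5512_at, -0.88 for TEN1, -0.86 for RRT13 and -0.83 for MPA43, and -0.79 and -0.55 for 2 further probe sets without a symbol.

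In 3 of 47 groups of 4 values examined (gene changes and array median signals), 1 replicate lay far from the other 3. Chance alone would give about 1 in 20, so the number flagged is close to that share. RAD57 changed by -2.72 in GAL-NMD2 replicate 4. MPA43 changed by -0.76 in GAL-NMD2 replicate 1, somewhat further below 0 than the other 3, which lay close together. HUG1 changed by 0.015 in GAL-NMD2 replicate 2, the culture in which its signal was near the level of nmd2D.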

How the results depend on the processing

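For the GAL-NMD2 step from 10 to 20 min (363 calls), the calls under the alternatives numbered 12 without the replicate block, 0 with the 8 arrays alone and 206 after quantile normalization, and 160 to 588 when 1 replicate was left out; the other alternatives stayed within 1.5 times. No named gene that passed changed direction under any setting, and of 77 named genes called in this step 30 lost the call in 2 or fewer of 13 alternatives and 17 in 7 or more. For the difference between the strains in this step (6 calls), there were 0 without the replicate block, with the arrays compared alone, after centring and after quantile normalization, 3 with an added constant of 64, 10 without a trend, and 0 to 17 with 1 replicate left out. The nmd2D step (1 call) gave 0 without the replicate block, with it as a random effect, with the arrays alone, with a constant of 64 and with any nmd2D replicate left out. The GAL-NMD2 step from 40 to 60 min (3 calls) gave 0 without the replicate block, with the arrays alone, with a constant of 64 and after quantile normalization, 1 after centring, and 0 to 2 with 1 replicate left out. The 0 to 60 min difference (859 calls) gave 256 without the replicate block. The fits of fewer arrays or without the block have another spread or fewer degrees of freedom by construction; for the other settings the cause was not tested. Weak signals limit the dim probe sets, for which no detection calls were used.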
